A study of Mus musculus with 48 samples.

Results

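Phase II conjugation enzymes attach a polar group to drugs, steroids, bilirubin and food or microbial chemicals so that they can leave the cell. The set described here was every protein-coding gene whose symbol begins with Ugt1, Ugt2 or Ugt3, with Sult and a digit, or with Gst followed by the class letter a, m, p, t, o or k and a digit. It was chosen by symbol alone, though with earlier results of these data known. It held 63 of the 55401 genes counted in mouse colon, with 21 UDP-glucuronosyltransferases (Ugt), 21 glutathione S-transferases (Gst) and 21 sulfotransferases (Sult). Counts were high enough to judge 32 of the 63, namely 7 Ugt, 19 Gst and 6 Sult genes. Ugt enzymes sit in the endoplasmic reticulum and transfer glucuronic acid from UDP-glucuronic acid. Gst enzymes, mostly cytosolic, transfer glutathione, and cytosolic Sult enzymes transfer sulfate from the donor PAPS. All 3 kinds are known from the gut epithelium, which meets ingested chemicals first, and drug-metabolizing enzymes of the liver and gut are a classical output of the circadian clock.

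Whole colon tissue was taken from 48 adult male mice on the C57BL/6J background. The 24 Bmal1IEC-/- mice carried floxed Bmal1 alleles (Bmal1fl/fl) and a Villin promoter-driven CRE, which removes the clock factor BMAL1 from intestinal epithelial cells and leaves it in muscle, immune and stromal cells. The 24 control mice were littermates with the same floxed alleles and no CRE. All were housed singly with a running wheel, ate chow freely and were sampled on the second day of constant darkness, with 4 mice per genotype at each of circadian time (CT, hours from the start of the subjective day) 1, 5, 9, 13, 17 and 21. CT1, CT5 and CT9 make up the subjective day and CT13, CT17 and CT21 the subjective night. The comparisons ask how epithelial Bmal1 loss changed gene expression and its 24-h rhythms.

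Each library, 1 per mouse, held between 3144997 and 4785844 counted reads, so a gene at 0 could still have a true level of up to 0.627 to 0.954 CPM (counts scaled by library size to a common total), depending on the mouse and for counting error only. Arntl, the gene that encodes BMAL1, swung from a mean of 6.86 CPM at CT9 to 67.5 CPM at CT1 in control mice and only from 29.6 to 36.3 CPM in Bmal1IEC-/- mice (difference of rhythm, adjusted p = 9.4e-14), while its mean over all times did not pass the test (log2 fold change 0.22, SE 0.18, adjusted p = 0.458). Counts per gene do not separate the deleted exon. Nr1d1, a direct BMAL1 target, was lower in Bmal1IEC-/- mice by a log2 fold change of -1.56 (SE 0.13, adjusted p = 2.04e-13). Dbp, another BMAL1 target, had a log2 fold change of -0.84 (SE 0.14, adjusted p = 2.07e-05).

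Mice SV385 and SV384, both Bmal1IEC-/- at CT1, stood apart in tissue makeup. The 6 smooth muscle markers summed to 881 CPM in SV385 and 3371 CPM in SV384, against 3162 to 5620 CPM in the other 46 mice. Surface colonocyte markers summed to 19727 and 16522 CPM in these mice, above the 10607 to 15812 CPM of all others. The summed level of the 32 enzymes was likewise highest in SV385 (5628 CPM) and SV384 (5049 CPM), while the highest control mouse had 4380 CPM. Values without both mice are therefore given for some enzyme calls, but not for single marker genes or genes of the related lists. Other enzyme calls also depended on both mice. For example, in the rhythm test Ugt2b34 passed in Bmal1IEC-/- mice with them (adjusted p = 0.00502) and not without them (0.118). Ugt1a6a passed only without them, in control (adjusted p = 0.116 with and 0.00794 without) and in Bmal1IEC-/- mice (0.746 and 0.00761). Both genotypes were in the same fit with a shared spread, so control calls can change although no control mouse was left out. In bulk tissue, fewer cells of a type and less RNA per cell cannot be told apart. The p-values weigh a difference against the spread between mice.

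Some cell type markers differed between genotypes at an adjusted p under 0.05. Of all 14618 genes tested, 6.4% were higher and 5.56% lower in Bmal1IEC-/- mice. Of the 8 epithelial markers, 4 were higher in Bmal1IEC-/- mice and none lower (median log2 fold change 0.15, summed levels 5218 to 8111 CPM in control and 6239 to 11151 CPM in Bmal1IEC-/- mice). Of the 6 smooth muscle markers, 1 was lower (median -0.24, 3522 to 5620 against 881 to 5272 CPM). None of 6 surface colonocyte markers was higher and 2 were lower (median 0.01). Goblet cell markers split into 2 higher and 1 lower of 5 (median -0.19), 1 of 5 fibroblast markers was lower (median -0.13), and 2 of 4 tested small intestine markers were lower (median -0.36). The 4 tested T cell markers had a median of -0.31 (adjusted p between 0.11 and 0.292) and the 2 tested B cell markers one of 0.06 (adjusted p = 0.691 and 0.925). Markers of hepatocytes, which are rich in conjugation enzymes, summed to only 0.319 to 15.6 CPM, and the 5 pancreas markers had 17 counts in all mice together.

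Of the 31 enzyme genes that could not be judged, 16 were listed at 0 in all 48 mice. They were, on the Sult side, both Sult3a genes and all 8 Sult2a genes, which sulfate steroids and bile acids in liver, and on the Ugt side Ugt1a8, Ugt1a10, Ugt2a1, Ugt2a2, Ugt2a3 and Ugt3a1. Reads in exons shared by genes were not counted, which left 30 of 2570 exon bases for Ugt2a1 and 140 of 2541 for Ugt2a2. Their values of 0 therefore do not show that they were absent. Another 15 genes had some counts but too few. Gsto2 had 180 counts over all mice, Sult6b1 166, Sult5a1 93, Ugt2b1 77 and Ugt1a2 71, and 6 genes had between 1 and 10. Only 2 of 21 Gst genes, Gsto2 and Gstt4, were not judged, against 15 of 21 Sult genes and 14 of 21 Ugt genes.

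Per kilobase of exon that no other gene shares, the highest level belonged to Sult1a1, the main phenol sulfotransferase, with 335 ± 57.9 CPM per kb (SD, n = 48 mice). Next came Gsto1, an omega-class enzyme that reduces dehydroascorbate (226 ± 15.7), the mu-class enzyme Gstm1 (224 ± 33.5), the catecholamine sulfotransferase Sult1d1 (195 ± 32.8), Ugt2b34 (179 ± 21.7), the pi-class enzyme Gstp1 (169 ± 32.7), Ugt1a7c (151 ± 20.4) and Ugt1a1 (127 ± 33.8). Ranges of 1 SD around these neighbouring means overlapped except between Sult1a1 and Gsto1. All 3 families were thus among the 8 highest genes, and the lowest level was that of the alpha-class Gsta2 (1.46 ± 0.668).

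**Figure D1:**
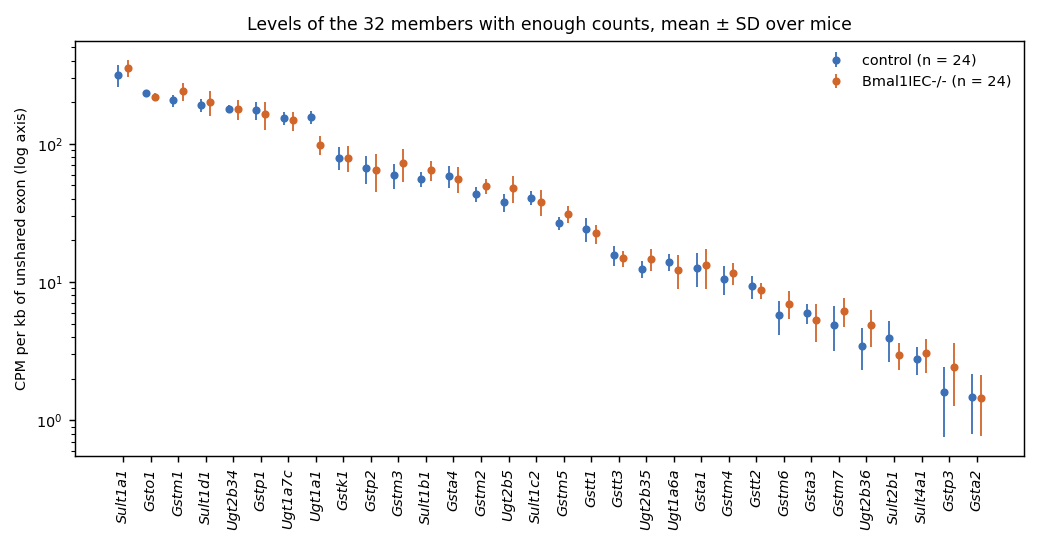
Level of each of the 32 judged genes in CPM per kb of unshared exon on a log axis, with points at the mean of 24 control (blue) and 24 Bmal1IEC-/- (orange) mice and bars of 1 SD. Sult1a1 is highest and Gsta2 lowest, and Ugt1a1 shows the widest gap between genotypes among the abundant genes, at 156 and 98.1 CPM per kb.

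Between genotypes, 12 of the 32 enzymes were higher in Bmal1IEC-/- mice at an adjusted p under 0.05 in edgeR's quasi-likelihood test (37.5%, against 6.4% of the 14618 genes tested) and 3 were lower (9.38% against 5.56%). Most changes were small. The median log2 fold change of the 32 was 0.02, with 16 above and 16 below 0, and that of all genes was 0. At a fold change over 1.5 as well, 1 member was higher, Gstp3 (0.664% of all genes), and 1 lower, Ugt1a1 (0.684% of all genes). The same 15 calls were made without SV384 and SV385, when 4.83% of all genes were higher and 5.72% lower, and by DESeq2. With the summed smooth muscle markers as a covariate, chosen after seeing the data, 14 of the 15 calls were kept and that of Gstp3 was not (log2 fold change 0.55, adjusted p = 0.0578).

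**Figure D2:**
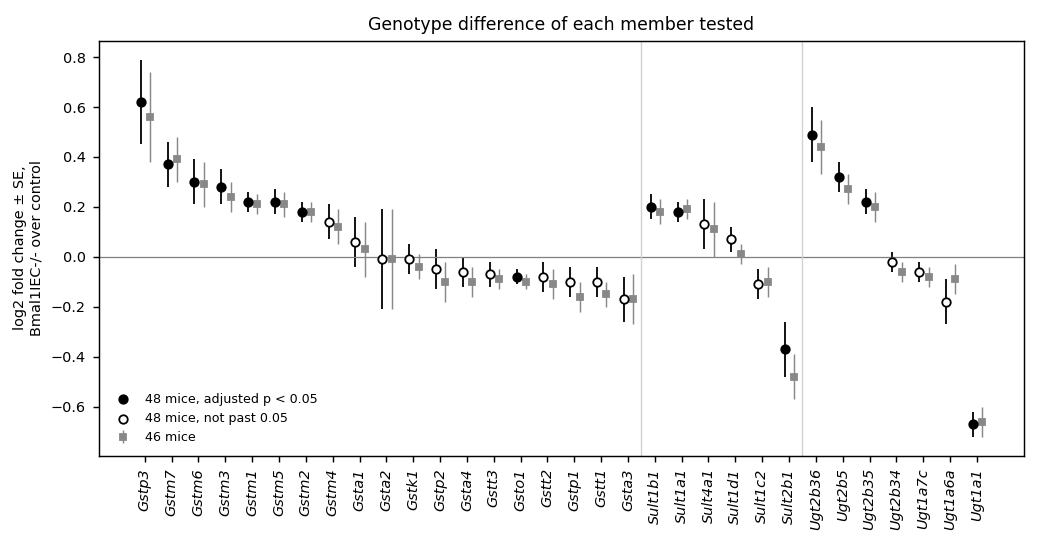
Log2 fold change of Bmal1IEC-/- over control with SE for the 32 judged genes, grouped as Gst, Sult and Ugt, from all 48 mice (circles, filled where the adjusted p is under 0.05) and from 46 mice without SV384 and SV385 (grey squares). Filled circles are at 0.18 or more above 0 for 12 genes and below 0 for Gsto1, Sult2b1 and Ugt1a1.

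Ugt1a1, the enzyme that conjugates bilirubin, showed the clearest change of all the members. In control mice it ranged from 47.4 to 70.5 CPM with a median of 62.9, and in Bmal1IEC-/- mice from 27.6 to 50.2 CPM with a median of 38.1. All 24 Bmal1IEC-/- mice were below the control median, and at each of the 6 times the 4 Bmal1IEC-/- mice were below the 4 controls. At CT17 the control mice had 62.9, 64, 67.2 and 68.3 CPM, and the Bmal1IEC-/- mice 27.6, 30.9, 31.8 and 34.1 CPM. The groups came closest at CT5, where the lowest control mouse had 47.9 CPM and the highest Bmal1IEC-/- mouse 46.2 CPM. The log2 fold change was -0.67 (SE 0.05, adjusted p = 1.46e-13), a level 0.627 times that of control, and it was -0.66 without SV384 and SV385 and between -0.69 and -0.65 with any 1 mouse left out. A test of whether the change exceeded 1.5-fold was passed by 0 of 32 members in edgeR (glmTreat), and by Ugt1a1 alone at an unadjusted p under 0.05. Rhythm in Ugt1a1 passed the test in neither genotype (adjusted p = 0.6 in control and 0.0682 in Bmal1IEC-/- mice).

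The 9 Ugt1a genes lie nested on chromosome 1 and join their own first exon to 3′ exons that all of them share, and reads in shared exons were not counted for any gene. The value of Ugt1a1 (chr1:88211959-88218997, plus strand, mm10) rests on 385 of its 2224 exon bases, a stretch of 375 bases at chr1:88212497-88212871 and 10 bases at its start. Besides the other Ugt1a genes, Gm20528 also shares exon bases with Ugt1a1. Overlap was judged on either strand, and the strand setting of the counting is not known, so this length and the level per kb are uncertain. Ugt1a7c, which glucuronidates phenols, was counted over 1915 bases, of which 998 lie past the annotated ends of the other Ugt1a genes, so its value can hold reads of others. It did not pass the test between genotypes (294 ± 32.2 CPM in control and 283 ± 45.1 in Bmal1IEC-/- mice, SD, n = 24 each, log2 fold change -0.06, adjusted p = 0.365). Ugt1a6a, which acts on planar phenols, was counted largely over stretches between the shared exons, within the span of the other Ugt1a genes. Its value, too, can therefore hold reads of others, such as unspliced RNA. It had 29.9 ± 4.07 and 26.3 ± 7.23 CPM (log2 fold change -0.18, adjusted p = 0.189, and -0.09 without SV384 and SV385). The lowest Ugt1a6a values were those of SV385 and SV384, at 9.92 and 11.7 CPM. The longest Ugt1a6a transcript holds no 100-base stretch that is absent from Ugt1a7c. The sum of these 3 genes was 384 ± 35.8 CPM in control and 347 ± 46 CPM in Bmal1IEC-/- mice.

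The Ugt2b genes glucuronidate steroids, bile acids and drugs, and 3 of the 4 judged were higher in Bmal1IEC-/- mice. Ugt2b5 had 51.7 to 89 CPM in control mice (median 69.5) and 60 to 137 CPM in Bmal1IEC-/- mice (median 82.6), with 22 of 24 Bmal1IEC-/- mice above the control median. Its log2 fold change was 0.32 (SE 0.06, adjusted p = 1.56e-04), with the means higher at all 6 times and the groups apart at 2 of them. The 2 highest values were those of the CT1 mice that stood apart in tissue makeup, and without them the log2 fold change was 0.27 (adjusted p = 6.11e-04). Of its 100-base stretches, 24.7% also occur in Ugt2b38, which had only 2 counts in all. Ugt2b36 rose from 7.15 ± 2.36 to 9.99 ± 2.99 CPM (log2 fold change 0.49, SE 0.11, adjusted p = 7.88e-04), again in 22 of 24 mice. Ugt2b35 rose from 42 ± 6.01 to 49.1 ± 8.94 CPM (log2 fold change 0.22, SE 0.05, adjusted p = 0.00419). The far more abundant Ugt2b34 had 772 ± 53.3 and 768 ± 122 CPM and did not pass the test (log2 fold change -0.02, SE 0.04, adjusted p = 0.862), and the summed Ugt2b level was 891 ± 60.5 CPM in control and 916 ± 148 CPM in Bmal1IEC-/- mice.

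The mu-class transferases, which conjugate epoxides and other electrophiles, lie side by side on chromosome 3 (107895821 to 108044894, mm10). All 7 had a higher mean in Bmal1IEC-/- mice, 6 passed the test, and their median log2 fold change was 0.22. Gstm1, the most abundant, had 238 to 372 CPM in control mice (median 308) and 284 to 500 CPM in Bmal1IEC-/- mice (median 346), with 20 of 24 mice above the control median. The groups overlapped widely, and the log2 fold change was 0.22 (SE 0.04, adjusted p = 3.54e-04). Gstm5 rose from 29.3 ± 3.03 to 34.2 ± 4.9 CPM (log2 fold change 0.22, SE 0.05, adjusted p = 9.69e-04) with the groups apart at 3 of 6 times. Gstm3 rose from 77.6 ± 15.6 to 94.5 ± 24.9 CPM (log2 fold change 0.28, SE 0.07, adjusted p = 0.00208). The log2 fold changes of Gstm2 and Gstm6 were 0.18 (adjusted p = 0.00211) and 0.30 (adjusted p = 0.0181). Gstm4 had a log2 fold change of 0.14 that did not pass (adjusted p = 0.165). The summed level of the class was 521 ± 49.9 CPM in control and 611 ± 88.4 CPM in Bmal1IEC-/- mice, with the highest levels in SV410 at CT9 and SV477 at CT5 (832 and 787 CPM). Summed epithelial markers had medians of 6596 CPM in control and 7050 CPM in Bmal1IEC-/- mice, and their part in the change was not tested. With the smooth muscle sum as a covariate the 6 calls were kept, with a log2 fold change of 0.20 for Gstm1 (adjusted p = 0.00307).

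Gstm7, a low-expressed mu-class gene, varied with circadian time in both genotypes. Control mice averaged 10.3, 10.6, 9.56, 5.31, 4.45 and 6.82 CPM from CT1 to CT21, and Bmal1IEC-/- mice 9.22, 12.8, 12.1, 8.79, 7.77 and 8.99 CPM. At CT13 the control mice had 4.74, 5.14, 5.47 and 5.9 CPM and the Bmal1IEC-/- mice 7.5, 7.86, 8.35 and 11.4 CPM. The night trough was thus shallower in Bmal1IEC-/- mice by these means, and at 3 of 6 times the groups did not overlap. Its log2 fold change over all times was 0.37 (SE 0.09, adjusted p = 0.00211), with log2 fold changes of 0.16 by day and 0.61 by night, but the test of the day-night difference did not pass after adjustment (adjusted p = 0.241, unadjusted p = 0.0113).

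**Figure D3:**
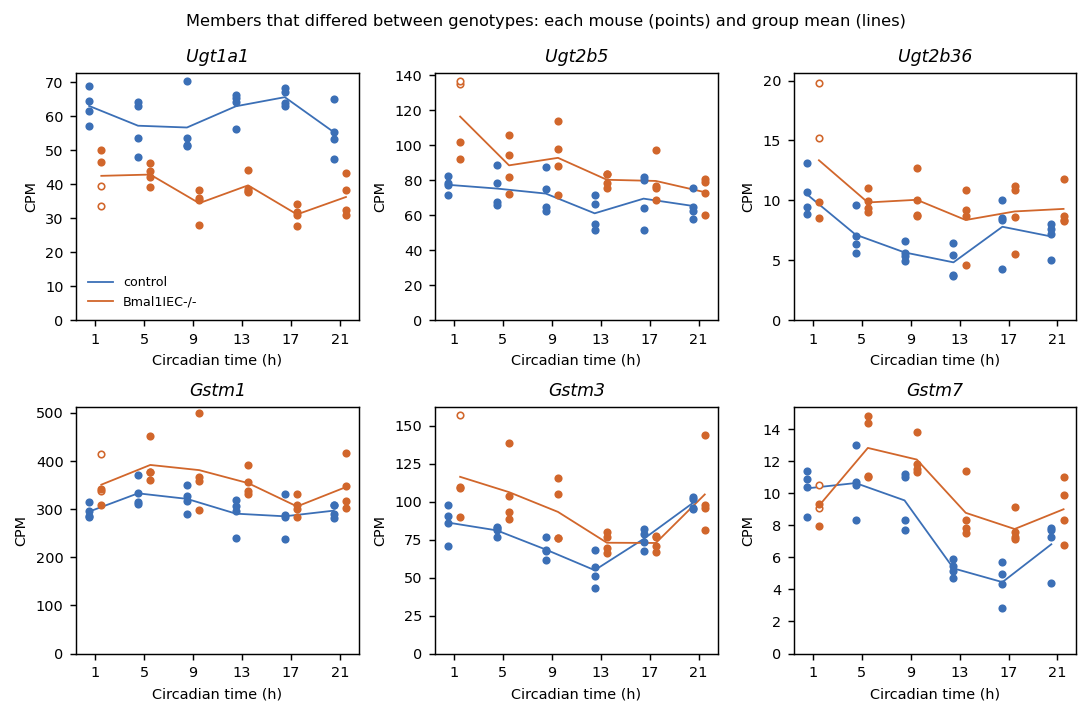
CPM of Ugt1a1, Ugt2b5, Ugt2b36, Gstm1, Gstm3 and Gstm7 against circadian time in hours, with 1 point per mouse and lines through the means of 4 control (blue) or 4 Bmal1IEC-/- (orange) mice. Open points are SV384 and SV385, points are moved sideways by 0.5 h for clarity, and Ugt1a1 is the gene whose groups are apart at all 6 times.

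Among the other glutathione S-transferases, Gstp3, a low-expressed pi-class gene with 337 counts in all mice, had 0.238 to 3.47 CPM in control mice (median 1.4) and 0.498 to 4.81 CPM in Bmal1IEC-/- mice (median 2.08). These values lie near the level that a count of 0 allows. The log2 fold change was 0.62 (SE 0.17, adjusted p = 0.0126), 0.56 without SV384 and SV385 (adjusted p = 0.0344), and 0.54 without the mice of CT13 (adjusted p = 0.0528). Gsto1 was lower by little, at 470 ± 29 CPM in control and 443 ± 29.3 CPM in Bmal1IEC-/- mice (log2 fold change -0.08, SE 0.03, adjusted p = 0.038). That call was lost in 27 of the 48 fits that left out 1 mouse, of either genotype and all 6 times (adjusted p between 0.0115 and 0.0802), and without CT5, CT9, CT13, CT17 or CT21. The 4 alpha-class genes, the 3 theta-class genes and the kappa-class Gstk1 did not pass the genotype test (adjusted p between 0.231 for Gstt1 and 0.98 for Gsta2). Gstp1 had 270 ± 40.5 and 254 ± 58.8 CPM (log2 fold change -0.1, adjusted p = 0.354), and the log2 fold change was -0.19 (adjusted p = 0.0356) without CT1. Gstp1 and Gstp2 share 52.8% and 54.6% of their 100-base stretches with each other, and 81.8% of those of Gsta1 also occur in other genes. Reads that fit more than 1 gene may therefore have been discarded.

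Of the 6 judged sulfotransferases, 2 were higher and 1 lower in Bmal1IEC-/- mice. Sult1a1 had 335 to 587 CPM in control mice (median 466) and 401 to 648 CPM in Bmal1IEC-/- mice (median 511), a log2 fold change of 0.18 (SE 0.04, adjusted p = 0.00242). Sult1b1, which sulfates phenols and thyroid hormones, rose from 155 ± 18.9 to 179 ± 30 CPM (log2 fold change 0.20, SE 0.05, adjusted p = 0.00418). Sult2b1, which sulfates cholesterol and other hydroxysteroids, fell from 14.2 ± 4.63 to 10.8 ± 2.36 CPM (log2 fold change -0.37, SE 0.11, adjusted p = 0.014), with 21 of 24 Bmal1IEC-/- mice below the control median. At CT13 its control mice had 17.3, 19, 21.3 and 24.6 CPM and its Bmal1IEC-/- mice 8.21, 10.5, 12.4 and 13.6 CPM. At CT1 the order of the means was the opposite, with 7.92 ± 1.8 CPM in control and 12.9 ± 3.99 CPM in Bmal1IEC-/- mice (SD, n = 4 each), where SV384 and SV385 had 14.9 and 17.4 CPM and the other Bmal1IEC-/- mice 8.78 and 10.4 CPM. The log2 fold change was -0.48 without SV384 and SV385 (adjusted p = 1.08e-04) and -0.56 without CT1 (adjusted p = 7.56e-06), and it missed the threshold without CT9 (-0.31, adjusted p = 0.0907), CT13 (-0.26, 0.145), CT17 (-0.36, 0.0522) or CT21 (-0.32, 0.0815). Sult1c2, with 75.3 ± 9.12 and 70 ± 14.9 CPM, Sult1d1 and Sult4a1 did not pass.

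Rhythms were tested with a 24-h cosine in each genotype. In control mice 18 of the 32 enzymes were rhythmic (56.2%, against 45.1% of all genes), and in Bmal1IEC-/- mice 19 were (59.4%, against 27.5%). Both genotypes were called for 13 enzymes, control alone for 5, Bmal1IEC-/- alone for 6 and neither for 8, while over all genes these counts were 3147, 3441, 878 and 7152. The median fitted amplitude, in log2 units from mean to peak, was 0.24 in control and 0.23 in Bmal1IEC-/- mice for the 32 enzymes, and 0.20 and 0.16 over all genes. Amplitude was lower in Bmal1IEC-/- mice for 15 of the 32 enzymes and for 9270 of the 14618 genes. Without SV384 and SV385, 20 enzymes were rhythmic in control (48.6% of genes) and 17 in Bmal1IEC-/- mice (26.1%). By JTK_cycle, a rank-based rhythm test, 18 enzymes passed in control (56.2%, against 34.6% of all genes) and 7 in Bmal1IEC-/- mice (21.9%, against 9.89%). The test was re-implemented here, so its counts may differ from those of the published tool.

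Of the 8 rhythms of smallest p in control mice, 3 peaked by day and 5 after the start of the subjective night. Gstm7 peaked at 4.3 h (amplitude 0.66, peak-to-trough 2.51-fold, adjusted p = 5.05e-08), Gstm4 at 3.8 h (0.37, adjusted p = 5.64e-05) and Sult1a1 at 6.0 h (0.33, adjusted p = 1.01e-07). Sult1a1 means ran from 515, 535 and 529 CPM at CT1, CT5 and CT9 to 434, 360 and 363 CPM at CT13, CT17 and CT21, and the 8 control mice of CT17 and CT21 had at most 411 CPM while the 12 of the day times had at least 461 CPM. Night peaks belonged to the theta-class genes Gstt1 (18.9 h, 0.32, adjusted p = 9.46e-06) and Gstt3 (19.0 h, 0.26, adjusted p = 5.55e-05), to Gsta4, which clears the lipid peroxidation product hydroxynonenal (20.8 h, 0.30, adjusted p = 9.67e-05), and to Gstk1 of mitochondria and peroxisomes (21.4 h, 0.30, adjusted p = 9.32e-05). Gstt3 shares 23.9% of its 100-base stretches with the overlapping Gm20441. Sult2b1 peaked at 12.7 h (0.49, adjusted p = 7.91e-05).

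In Bmal1IEC-/- mice the rhythms of smallest p were those of Ugt1a7c (peak 0.2 h, amplitude 0.25, adjusted p = 4.01e-05), Gstp1 (0.5 h, 0.32, adjusted p = 9.06e-05), Gstm3 (2.2 h, 0.36, adjusted p = 1.71e-04), Gstk1 (22.9 h, 0.31, adjusted p = 1.93e-04) and Sult1a1 (7.3 h, 0.21, adjusted p = 0.00101). Gstk1 had nearly the same amplitude in both genotypes, with control means from 87.7 CPM at CT9 to 145 CPM at CT21 and Bmal1IEC-/- means from 94.9 CPM at CT9 to 149 CPM at CT1. All 5 were also called in control mice, and the difference between genotypes passed the test only for Gstp1 among them (Ugt1a7c, adjusted p = 0.478, Gstm3, 0.295, Gstk1, 0.675, Sult1a1, 0.286). Of the theta class, all 3 genes were rhythmic in control and 1, Gstt1, in Bmal1IEC-/- mice (adjusted p = 0.0389, and 0.147 without SV384 and SV385). The difference of rhythm did not pass for any theta gene (Gstt1, adjusted p = 0.114, Gstt2, 0.0629, Gstt3, 0.23).

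**Figure D4:**
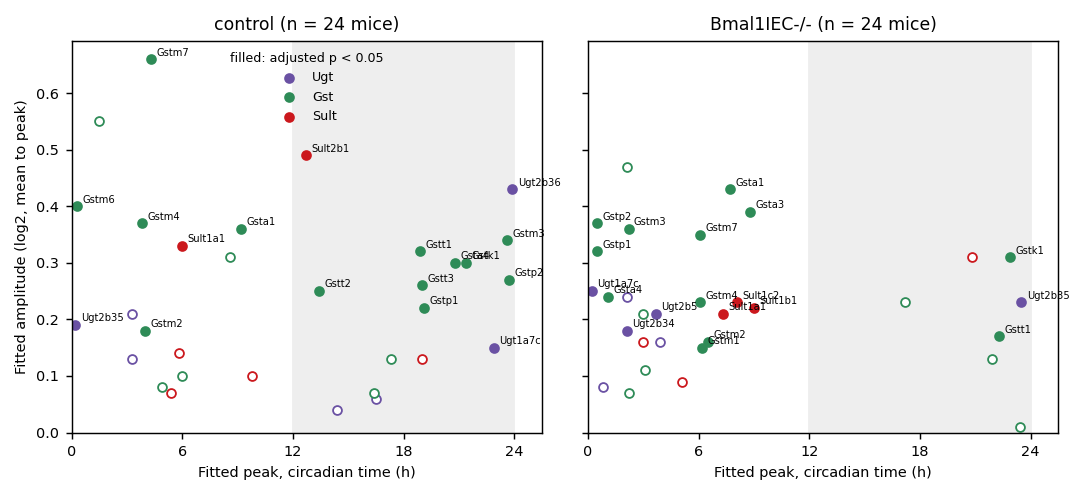
Fitted peak in circadian hours against fitted amplitude (log2, mean to peak) of the 32 judged genes in control (left) and Bmal1IEC-/- mice (right), coloured by family, with filled points at an adjusted p under 0.05 and the subjective night shaded. In control mice Gstm7 has the highest amplitude at 0.66 and Gstt1, Gstt3, Gsta4 and Gstk1 peak between 18.9 and 21.4 h, and in Bmal1IEC-/- mice the called amplitudes are at most 0.43.

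A difference of rhythm between genotypes was found for 3 of the 32 enzymes (9.38%, against 1.92% of all genes). All 3 calls were lost without SV384 and SV385, when 0 of 32 passed in edgeR after adjustment, against 0.935% of all genes. At an unadjusted p under 0.05 there were 12 enzymes over all 48 mice, where 15.3% of all genes passed. Without SV384 and SV385 there were 14 at that unadjusted threshold, for which no share of all genes was computed. Gstp1 peaked at 19.1 h in control and at 0.5 h in Bmal1IEC-/- mice (adjusted p = 0.0141, 0.0824 without both mice, and between 0.00544 and 0.0311 without any 1 mouse). At CT13 its control mice had 259, 270, 273 and 274 CPM and its Bmal1IEC-/- mice 179, 181, 212 and 214 CPM, and at CT1 they had 213, 239, 269 and 299 against 256, 289, 339 and 426 CPM. The control group was thus higher without overlap at CT13, and at CT17 as well (275 to 300 against 199 to 238 CPM), and the groups overlapped at CT1. Sult2b1 had an amplitude of 0.49 in control and 0.09 in Bmal1IEC-/- mice (adjusted p = 0.0395, 0.299 without both mice), and its call was lost in 11 of the 48 fits that left out 1 mouse (0.0127 to 0.116). Gsta3, an alpha-class enzyme that detoxifies aflatoxin epoxide, had 0.13 and 0.39 (adjusted p = 0.0469, 0.0836 without both mice), and its call was lost in 27 of 48 such fits, by mice of both genotypes (0.0194 to 0.0897). Its Bmal1IEC-/- mice at CT17 had 15.5, 16.5, 18.1 and 20.8 CPM and its control mice 22.3, 26.3, 34.3 and 34.5 CPM, and at CT5 and CT9 the groups overlapped. Without the mice of CT1 or of CT13 there were 0 calls in edgeR, with 8 and 11 at an unadjusted p under 0.05, again without a share of all genes.

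**Figure D5:**
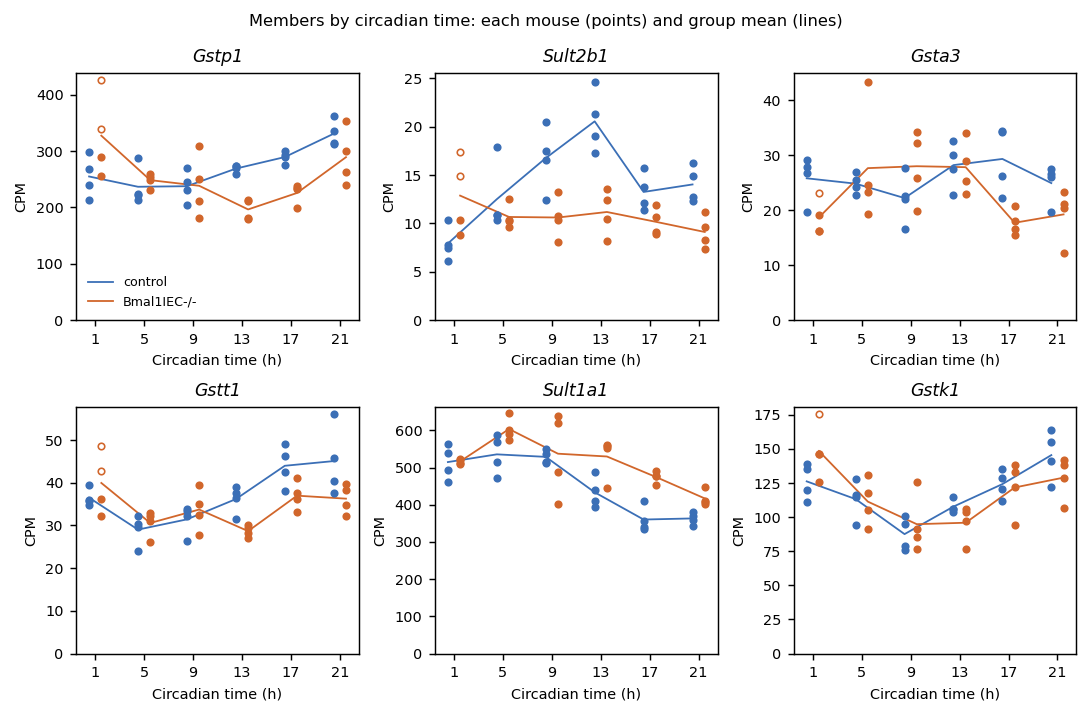
CPM of Gstp1, Sult2b1, Gsta3, Gstt1, Sult1a1 and Gstk1 against circadian time in hours, with 1 point per mouse and lines through the means of 4 control (blue) or 4 Bmal1IEC-/- (orange) mice, moved sideways by 0.5 h. Open points are SV384 and SV385, which for Gstp1 and Sult2b1 are at the upper end of the Bmal1IEC-/- mice at CT1. At CT13 the control mice lie above the Bmal1IEC-/- mice for Gstp1, Sult2b1 and Gstt1.

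Whether the genotype difference depended on day or night was tested as an interaction. Of the 32 enzymes 0 passed in edgeR (against 0.137% of all genes) and 0 in DESeq2, and 9 had an unadjusted p under 0.05, where 13.1% of all genes did. By day and by night the log2 fold changes were 0.16 and -0.32 for Gstp1 (adjusted p = 0.132), 0.10 and -0.30 for Gstt1 (adjusted p = 0.17), -0.13 and -0.64 for Sult2b1 (adjusted p = 0.3), and 0.07 and 0.30 for Sult1a1 (adjusted p = 0.289).

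Promoter sequence was available in RefSeq (GRCm38.p6) for 55 of the 63 genes and for 29 of the 32 judged, which had 37 windows of 300 bases, from 250 before to 50 after a transcription start. Each was searched on both strands for the E-box CACGTG bound by BMAL1, the D-box (TTATGTAA or TTACGTAA) bound by DBP and its relatives, the element TAGGTCA bound by REV-ERB factors, and the antioxidant response element TGACNNNGC bound by NRF2. The E-box was in 0 of the 37 windows and in 7.15% of all 32851 mouse windows, the D-box in 0 and 1.06%, the REV-ERB element in 1 and 2.61%, and the antioxidant response element in 3 and 12.4%. The REV-ERB element was in Sult1b1, 123 bases before the start. The antioxidant response elements were in Gsta3, Gstm5 and Gstm7, 121, 42 and 129 bases before the start used for each window. For Gstm7 that start lies inside the gene, whose annotated 5′ end is at chr3:107931817. The Gstm7 match therefore lies downstream of that end and not upstream of the gene. Below are the window of Ugt1a1 (chr1:88211709-88212008, plus strand), shown because it had the clearest change and holds none of these motifs, those of Gstm5 (chr3:107895604-107895903, plus strand) and Gstm7 (chr3:107931565-107931864, minus strand), shown as raised mu-class genes with a match, and that of Sult1b1 (chr5:87538146-87538445, minus strand), each 5′ to 3′ on the strand of the gene with the matched motif in capitals.
Ugt1a1: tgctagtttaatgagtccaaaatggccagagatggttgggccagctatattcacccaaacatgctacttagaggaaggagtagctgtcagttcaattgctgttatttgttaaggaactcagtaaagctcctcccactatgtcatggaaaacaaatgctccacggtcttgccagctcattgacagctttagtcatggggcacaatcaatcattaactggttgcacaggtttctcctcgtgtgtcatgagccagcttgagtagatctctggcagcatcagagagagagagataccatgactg
Gstm5: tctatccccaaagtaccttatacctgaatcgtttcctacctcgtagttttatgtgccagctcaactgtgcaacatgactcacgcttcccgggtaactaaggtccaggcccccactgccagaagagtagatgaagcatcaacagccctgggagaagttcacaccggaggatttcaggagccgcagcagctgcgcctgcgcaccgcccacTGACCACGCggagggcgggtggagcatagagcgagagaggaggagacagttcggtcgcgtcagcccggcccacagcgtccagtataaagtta
Gstm7: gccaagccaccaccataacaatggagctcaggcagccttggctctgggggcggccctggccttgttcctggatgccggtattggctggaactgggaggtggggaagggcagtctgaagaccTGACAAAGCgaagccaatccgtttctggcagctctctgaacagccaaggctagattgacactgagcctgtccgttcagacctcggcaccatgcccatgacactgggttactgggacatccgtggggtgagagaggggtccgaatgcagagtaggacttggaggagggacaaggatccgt
Sult1b1: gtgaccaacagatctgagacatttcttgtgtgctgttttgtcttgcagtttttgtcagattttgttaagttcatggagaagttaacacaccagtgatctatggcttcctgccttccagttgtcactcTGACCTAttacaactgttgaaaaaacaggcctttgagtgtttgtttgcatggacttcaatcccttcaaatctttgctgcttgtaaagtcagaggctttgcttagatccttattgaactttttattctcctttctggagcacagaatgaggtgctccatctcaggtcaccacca
These matches describe the letters only. Gstm7 and Sult1b1 each have a second annotated start whose window had no match, and most changed enzymes, including Gstm1, Gstm3 and Ugt2b5, had none of the 4 motifs in these windows.

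Genes around the conjugation step were compared by lists grouped by function, chosen with earlier results of these data known. Of all 14618 genes tested, 6.4% were higher and 5.56% lower in Bmal1IEC-/- mice. Of other conjugating enzymes, 18 of 21 were judged, 1 was higher, Ugt8a, which makes galactosylceramide (log2 fold change 0.58, SE 0.11), and 1 lower, the microsomal transferase Mgst2 (log2 fold change -0.39, SE 0.07). Of 21 judged genes that supply or recycle the donors, 3 were higher and 4 lower. Ggt1, which breaks down extracellular glutathione, had a log2 fold change of -0.71 (SE 0.14, adjusted p = 3.03e-04). Among the 12 judged genes that export or cleave conjugates, 2 were higher and 1 lower. Abcc2, an apical pump for glucuronide and glutathione conjugates, had 6.68 CPM in control and 2.06 CPM in Bmal1IEC-/- mice (log2 fold change -1.59, SE 0.17, adjusted p = 2.83e-10). The opposite was found for Abcg2, an apical pump that also carries sulfate conjugates, with 133 and 212 CPM (log2 fold change 0.72, SE 0.06, adjusted p = 5.63e-13).

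A further list held receptors for foreign chemicals or bile acids together with other transcription factors. Of its 11 judged genes, 2 were higher (Nr1h4 and Cdx2) and 2 lower (Ppara and Vdr). Cdx2 is also 1 of the 8 epithelial markers above and is no sensor of chemicals. Of 18 judged genes on the NRF2 list, 0 were higher and 5 lower, against 6.4% higher and 5.56% lower over all genes. Among the 5, Bach1 is a regulator and no target, and Gclc is also counted on the donor list. The NRF2 list does not hold every target. Gpx2 (log2 fold change 0.38, adjusted p = 4.56e-05) and Gsr (0.18, adjusted p = 9e-04) were higher and were counted on the donor list only. The median of the NRF2 list was -0.02. The carboxylesterase Ces1g was the member past 1.5-fold (log2 fold change -0.73, SE 0.07, adjusted p = 2.7e-11). On the list of 13 PAR bZIP factors and clock output genes, 6 were lower. Nfil3, a repressor of D-box genes, had a log2 fold change of 1.05 (adjusted p = 3.11e-07) and Nr1d2, which encodes a REV-ERB factor, one of -1.79 (adjusted p = 1.96e-23).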

How the data were processed

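RNA-seq libraries of colon tissue from 48 mice (TruSeq Stranded mRNA kit) were processed by the authors with Trimmomatic 0.39, STAR 2.7.5c against mm10, SAMtools 1.3.1 and featureCounts 1.4.6, which counted exon reads that overlapped 1 gene only, and the raw count per gene and mouse was deposited. The reads counted had also passed a threshold of mapping quality. The annotation release and strand setting are not given in the sources used here, and genes were matched to GENCODE vM21 by identifier. Genes with enough counts were kept with edgeR 4.0.16 (filterByExpr, minimum count 10) in R 4.3.3, scaled by TMM, and tested with its quasi-likelihood F test and Benjamini-Hochberg adjustment over all 14618 genes kept, at 0.05. Genotype was fitted with circadian time as a factor, and day or night as an interaction with genotype. Rhythm was fitted with a 24-h cosine and sine for each genotype, in a single fit of all mice with a shared spread. The genotype test, the rhythm tests in control mice and the test of a difference of rhythm were checked on simulated counts. The day-night test was checked only on counts simulated without an interaction. Other tests and settings were not checked in this way. Levels per mouse are CPM, counts scaled to a common library size after TMM. Total counts were between 3144997 and 4785844, and no 2 libraries of a group agreed within sampling noise.

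Members and lists were chosen with earlier results of these data known. Named were the 10 genes of highest level, those past both genotype thresholds, the 6 of smallest p in each direction, the 8 and 5 of smallest p for rhythm in control and Bmal1IEC-/- mice, and those with a difference of rhythm. Ugt2b34, Ugt2b35, Gstm2, Gstm6, Sult1b1, Sult4a1, Gstt2, Gsta1 and Gsta2 were added after their values were seen, to complete families. Genes of the related lists were named where past both thresholds, and Ugt8a, Mgst2, Nr1h4, Cdx2, Ppara, Vdr, Bach1, Gclc, Gpx2 and Gsr after their values were seen. A further gene of these lists is not reported here. Alternatives were DESeq2 1.42.0, its size factors, other filters, a model without time, a test against a 1.5-fold change, a re-implemented JTK_cycle, leaving out a mouse, a time or mice SV384 and SV385, and a smooth muscle covariate.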

Additional observations from a re-analysis of the deposited data

Results flagged for a closer look

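In 14 of 288 groups of 4 mice (4.86%, from 24 members in 12 groups each), 1 mouse lay apart from the other 3 by Dixon's test, and chance alone marks about 1 in 20 groups. The mice above their group were SV385 for Gsta4 in Bmal1IEC-/- at CT1 (113 CPM, others 77.4 to 79.5), SV439 for Gsto1 in Bmal1IEC-/- at CT5 (487, others 420 to 424), SV442 in control at CT5 for Gstp1 (287, others 214 to 224) and Sult2b1 (17.9, others 10.3 to 10.9), SV444 in Bmal1IEC-/- at CT21 for Gstp3 (4.15, others 1.87 to 2.08) and Ugt2b36 (11.8, others 8.28 to 8.73), SV412 for Ugt1a1 in control at CT9 (70.5, others 51.2 to 53.5), SV449 for Ugt1a1 in Bmal1IEC-/- at CT13 (44.3, others 37.6 to 38.6) and SV447 for Ugt2b34 in control at CT5 (836, others 722 to 733). The mice below their group were SV476 for Gstm7 in control at CT21 (4.42, others 7.28 to 7.86), SV416 for Gstp1 in Bmal1IEC-/- at CT17 (199, others 232 to 238), SV478 for Gstp2 in Bmal1IEC-/- at CT5 (48.3, others 72.7 to 77), SV450 for Sult1a1 in Bmal1IEC-/- at CT13 (446, others 553 to 561) and SV439 for Ugt1a6a in Bmal1IEC-/- at CT5 (24.1, others 32.6 to 34.2).

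The rhythm differed between genotypes for Gstp1 (adjusted p = 0.0141), Sult2b1 (0.0395) and Gsta3 (0.0469) by edgeR's quasi-likelihood test of the interaction over all 48 mice, and for none of them without SV384 and SV385.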

How the results depend on the processing

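The 15 genotype calls were the same with DESeq2, with its size factors and without SV384 and SV385. Without a time term 9 differed, 7 of them higher, and with any 1 mouse left out 14 to 15 differed, 12 to 12 higher and 2 to 3 lower. Leaving out CT13 left 10 of the 15 (9 higher), CT9 12 (11 higher) and CT17 or CT21 13 (12 higher), with 1 lower each time, Ugt1a1. A mean count of at least 50 left 10. Past 1.5-fold, 1 remained, Ugt1a1, in place of 2 with a mean count of at least 50, without CT13, without SV384 and SV385, without a time term and with the smooth muscle covariate, 0 passed glmTreat (1 at an unadjusted p under 0.05), and with any 1 mouse left out the number was 1 to 2, with 1 when SV385, SV443, SV477, SV444 or SV400 was left out. The difference of rhythm, called for 3 enzymes (12 unadjusted), was called for 0 without CT1 (8 unadjusted), 0 without CT13 (11 unadjusted), 0 without SV384 and SV385 (14 unadjusted), 1 without CT9, 1 without CT17, 5 without CT21 and 1 to 4 without 1 mouse, with 1 when SV448, SV385, SV424, SV396, SV455, SV446, SV468 or SV469 was left out. The day-night interaction, called for 0, was called for 2 without CT9 and for 0 to 1 without 1 mouse (SV444). Rhythmic in Bmal1IEC-/- mice were 7 by JTK_cycle, in place of 19, and 16 to 20 without 1 mouse, and in control mice 18 by JTK_cycle and 17 to 20. The cause of these changes was not tested, except that leaving out mice or times also lowers the number of samples. No result changed direction past the threshold. No paired analysis was possible because each mouse has a number of its own and no number is shared between groups. Depth limits Gstp3 and Gsta2 most, whose levels lie near what a count of 0 allows.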
